A study of Mus musculus with 12 samples.

Results

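The 10 transcription factors described here, Tcf7, Lef1, Satb1, Bach2, Id2, Id3, Tox, Tox2, Zeb1 and Zeb2, are named regulators of memory, stem-like and exhausted T cells. They were taken by name from 38924 gene IDs, and all 10 were among the 13811 genes that passed the filter on low counts. The libraries came from CD4+ T cells of C57BL/6 mice aged 8 to 12 weeks, either WT or STING KO. The STING KO mice carry the Goldenticket allele (STINGgt/gt), a missense mutation of Tmem173 that leaves no functional STING protein. Naive T cells of every group, controls included, had been sorted from spleens and first activated for 2 days by anti-CD3 and anti-CD28 antibodies, followed by 1 day of rest. The cells were then kept for 16 h with the solvent DMSO or with CMA (10-carboxymethyl-9-acridanone), a cell-permeable compound that activates mouse STING, and 3 libraries were made for each of the 4 combinations. The study calls the libraries of a group biological replicates, but neither it nor the labels say whether they came from separate animals or cultures, so p-values measure the spread between these libraries.

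Per library, genes received 27414450 to 43784910 reads. Expression is quoted as CPM, read counts relative to the TMM-scaled library size. Tmem173 mRNA was at 183 to 190 CPM in WT T cells with DMSO and 296 to 316 CPM with CMA. In STING KO T cells it was at 168 to 181 CPM with DMSO and 169 to 184 CPM with CMA. Since the allele is a missense mutation, these mRNA levels are no check of the genotype labels. The summed level of 8 T cell markers was 2727 to 2827 CPM in WT with DMSO, 2367 to 2464 CPM in WT with CMA and 2873 to 2967 CPM in the STING KO libraries. With CMA in WT, 1 of the 8 was higher, 4 were lower and 3 were not past an adjusted p of 0.05 (edgeR). Of all genes tested, 33.0% were higher and 37.4% lower. Reads that the counter placed on no feature made up 4.86% to 5.47% of the entries in WT with DMSO and 6.79% to 7.16% in WT with CMA, without overlap. In STING KO they made up 5.98% to 6.54% with DMSO and 6.02% to 6.33% with CMA. Where these reads lay and their part in the differences with CMA were not tested. Markers of other splenic cells were also present. In bulk RNA, fewer cells of a type and less RNA per cell cannot be told apart. The study reports apoptosis of WT T cells, but not of STING KO T cells, after culture with CMA overnight. The libraries with CMA were made after such a culture, and no count of dying or surviving cells is given for them. Levels in CPM are relative to the size of each library. The part of cell death or survival in the differences with CMA was not tested.

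TCF-1, encoded by Tcf7, and LEF1 are related DNA-binding proteins that work with β-catenin or Groucho co-repressors and are known for keeping T cells naive, memory-like or self-renewing. SATB1 organises chromatin in developing T cells and BACH2 represses effector genes. ID2 and ID3 hold E proteins away from DNA, with ID2 linked to effector and ID3 to memory fates, while ZEB2 accompanies terminal effector differentiation, ZEB1 is linked to memory, and TOX and TOX2 accompany exhaustion.

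Sequences upstream of 2 members are shown because Satb1 had the largest increase of WT over STING KO T cells with DMSO among the members, and Id2 was the member that fell with CMA in both genotypes. Each is the 250 bases before the RefSeq transcription start on GRCm38.p6, on the minus strand, at chr17:51833291-51833540 for Satb1 and chr12:25096093-25096342 for Id2. The capitals in Id2 mark an E-box (CANNTG), the kind of site that E proteins bind, and Satb1 has none.
Satb1: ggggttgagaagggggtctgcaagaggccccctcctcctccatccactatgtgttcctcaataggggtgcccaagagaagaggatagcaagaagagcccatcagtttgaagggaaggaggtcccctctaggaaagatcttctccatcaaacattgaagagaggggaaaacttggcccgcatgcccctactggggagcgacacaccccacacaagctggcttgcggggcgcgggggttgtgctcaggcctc
Id2: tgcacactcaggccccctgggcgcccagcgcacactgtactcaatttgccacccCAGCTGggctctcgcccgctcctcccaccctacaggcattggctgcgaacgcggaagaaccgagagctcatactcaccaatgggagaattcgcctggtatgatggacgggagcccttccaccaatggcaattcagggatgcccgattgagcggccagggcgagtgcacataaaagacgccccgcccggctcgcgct
RefSeq windows within 1000 bases of the gene start were found for 7 members (Tcf7, Lef1, Tox2, Satb1, Id2, Id3 and Zeb2). In the 1 window nearest the gene start of each, both strands were searched for 5 motifs. The general E-box CANNTG was in that window of Tcf7, Lef1, Tox2 and Id2, and in 66.2% of all 32851 windows of this length. The interferon-stimulated response element, the STAT site TTCNNNGAA, the TCF/LEF core TCAAAG and the ZEB site CAGGTG, itself a form of CANNTG, were in 2.98%, 7.02%, 13.8% and 17.2% of all windows, respectively. These 4 motifs were not found in the windows searched for the 7 members. In the Tcf7 window an ATG opens a reading frame without a stop up to the window's end, and its E-box lies in that frame. That window may thus be coding sequence, so motifs found or missing in it do not describe a promoter of Tcf7.

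With CMA, WT T cells had more mRNA for Tcf7, Lef1, Satb1 and Bach2 and less for Id2, Id3 and Tox2. Tcf7 doubled and Id3 fell to less than 50% of its DMSO level. By edgeR's quasi-likelihood test, 5 of the 10 members were higher (these 4 and Zeb2) and 3 were lower. The background is wide, since 33.0% of all genes tested were higher and 37.4% were lower, 70.4% in all, and the counts of members are near those shares. The CMA libraries all lay above the DMSO libraries in 4 members and all below in 3, where 33.5% and 37.6% of all genes did so. At a change of at least 2-fold, which 17.0% of all genes reached in either direction, 1 member was higher (Tcf7) and 2 were lower (Id3 and Tox2). Whether the loss of dying cells had a part in these differences was not tested, as given above.

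Tcf7 (ENSMUSG00000000782, chromosome 11, 52252371 to 52283014 of GRCm38) was at 233, 236 and 265 CPM with DMSO and at 490, 494 and 515 CPM with CMA in WT T cells. Every CMA library was above every DMSO library. The difference was 1.03 ± 0.0507 (log2, SE, adjusted p = 2.04e-11, edgeR), and its size exceeded that of 83.5% of all genes tested. Lef1 (ENSMUSG00000027985, chromosome 3, 131110471 to 131224356), the closest relative of Tcf7 among the members, was at 200, 204 and 190 CPM with DMSO and at 242, 251 and 246 CPM with CMA. Its groups did not overlap either, but the difference was smaller at 0.32 ± 0.0460 (log2, SE, adjusted p = 1.22e-05, edgeR). The larger rise of Tcf7 showed in the ratio of Tcf7 to Lef1 in CPM per kb of exon, which was 3.89, 3.87 and 4.67 with DMSO and 6.78, 6.60 and 7.01 with CMA. The ratios did not overlap between the treatments. In STING KO T cells the ratio was 4.50, 4.64 and 4.62 with DMSO against 5.54, 5.57 and 5.36 with CMA, a smaller shift and again without overlap. With 3 libraries against 3, an exact two-sided permutation test of such a ratio cannot give a p below 0.1.

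Satb1 (ENSMUSG00000023927, chromosome 17, 51736187 to 51833290), whose upstream sequence is given above, was at 918, 893 and 1062 CPM with DMSO and at 1271, 1293 and 1321 CPM with CMA in WT T cells. All CMA libraries were higher, by 0.44 ± 0.0534 (log2, SE, adjusted p = 1.75e-06, edgeR). Bach2 (ENSMUSG00000040270, chromosome 4, 32238804 to 32586108) was at 250, 214 and 279 CPM with DMSO and at 336, 339 and 343 CPM with CMA. The DMSO libraries were spread widely and the CMA libraries closely, with no overlap, and the difference was 0.45 ± 0.0730 (log2, SE, adjusted p = 3.59e-05, edgeR).

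Id3 (ENSMUSG00000007872, chromosome 4, 136143497 to 136145755) went the other way. In WT T cells it was at 22.5, 23.2 and 20.7 CPM with DMSO and at 11.0, 10.3 and 9.93 CPM with CMA. Each CMA library was below each DMSO library, and the change was -1.08 ± 0.0646 (log2, SE, adjusted p = 2.35e-10, edgeR). Id2 (ENSMUSG00000020644, chromosome 12, 25093801 to 25096092) was at 66.5, 68.8 and 66.6 CPM with DMSO and at 53.4, 59.0 and 51.6 CPM with CMA. Id2 was thus lower without overlap, by less than Id3, with a change of -0.30 ± 0.0527 (log2, SE, adjusted p = 8.46e-05, edgeR). The summed level of both ID genes in CPM per kb was 39.8, 41.2 and 38.9 with DMSO and 28.0, 29.9 and 26.7 with CMA. The ratio of Id2 to Id3 in CPM per kb was 2.17, 2.17 and 2.36 with DMSO and 3.56, 4.20 and 3.82 with CMA. The total was thus lower and the share of Id2 larger with CMA in WT T cells, with no overlap in either.

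Tox (ENSMUSG00000041272, chromosome 4, 6686353 to 6991557) was at 16.2, 12.8 and 13.1 CPM with DMSO and at 13.3, 14.7 and 13.9 CPM with CMA in WT T cells. The groups overlapped and the fitted difference was 0.00 (log2, 95% interval -0.17 to 0.18, adjusted p = 0.988, edgeR). Its paralogue Tox2 (ENSMUSG00000074607, chromosome 2, 163203125 to 163324170) was the least abundant member, with 7, 13 and 23 reads with DMSO and 7, 5 and 8 reads with CMA. After scaling for depth the CMA libraries were lower, at 0.154 to 0.252 CPM against 0.255 to 0.561 CPM, and the change was -1.11 ± 0.372 (log2, SE, adjusted p = 0.0141, edgeR). This call rests on few reads and was lost with DESeq2, without WT DMSO replicate 3 and without WT CMA replicate 2, where the adjusted p reached at most 0.120. In a fit of the WT libraries alone Tox2 did not pass the filter on low counts and was not tested.

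Zeb1 (ENSMUSG00000024238, chromosome 18, 5591860 to 5775467) was at 72.1, 65.2 and 76.3 CPM with DMSO and at 75.5, 75.9 and 74.8 CPM with CMA in WT T cells. The CMA libraries lay within the DMSO range, and the difference was 0.08 (log2, 95% interval -0.03 to 0.19, adjusted p = 0.163, edgeR). Over 20 alternatives the difference lay between 0.02 and 0.15 with adjusted p from 0.0123 to 0.774, and 3 passed the threshold (limma on the log2 table, at least 10 counts in every library, and without WT DMSO replicate 3, where it was 0.15). Zeb2 (ENSMUSG00000026872, chromosome 2, 44983634 to 45117395) was at 24.6, 21.0 and 26.2 CPM with DMSO and at 29.4, 25.2 and 27.0 CPM with CMA. The Zeb2 groups overlapped and its change of 0.18 ± 0.0772 (log2, SE, adjusted p = 0.0439, edgeR) was only just past the threshold. Across 20 alternative settings its adjusted p ranged from 0.00418 to 0.236, and 7 lost the call.

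**Figure D1:**
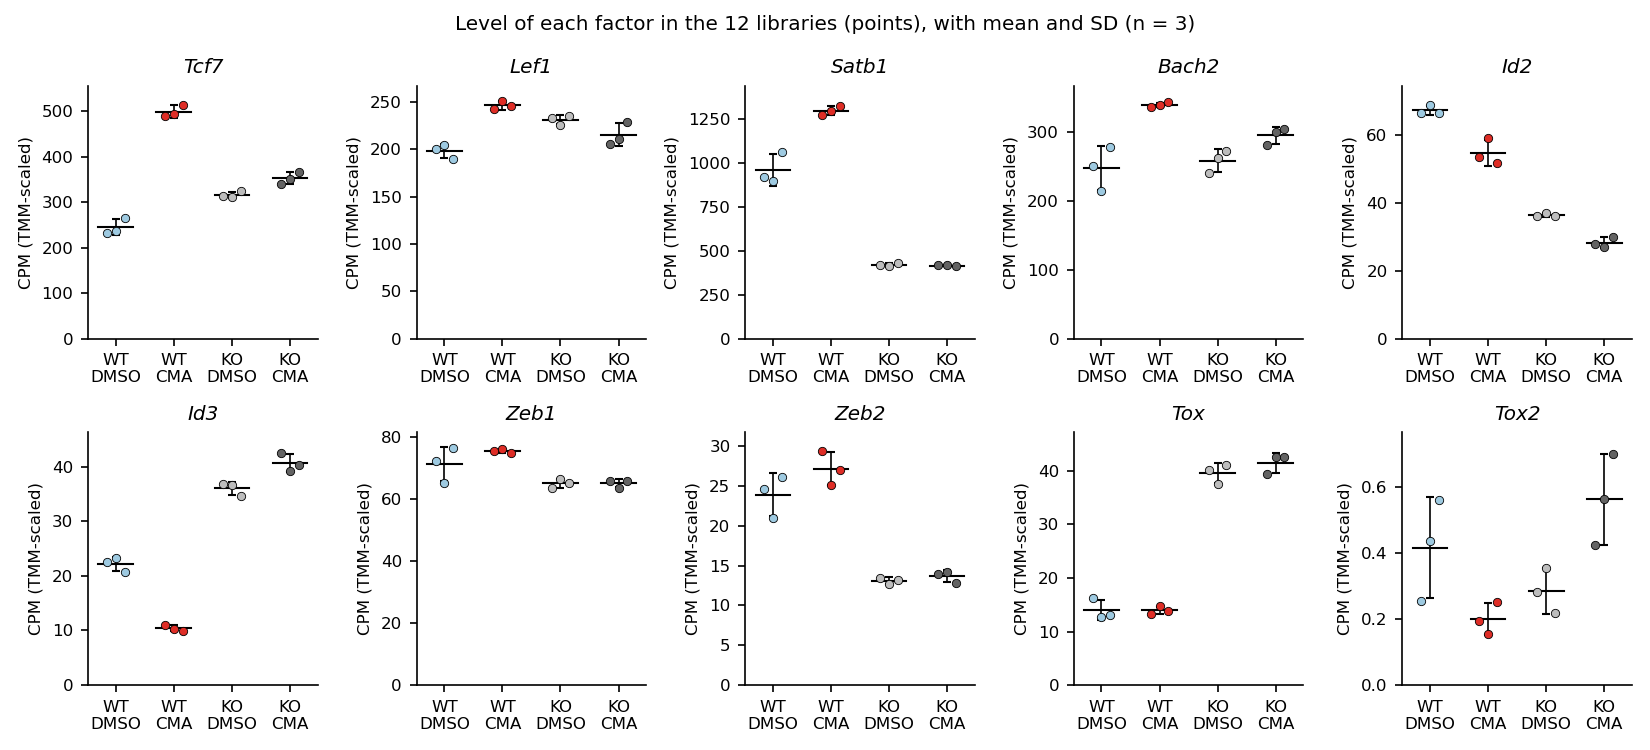
CPM (TMM-scaled, linear axes from 0) of each of the 10 factors in the 12 libraries, by genotype (WT or STING KO, written KO) and treatment; points are libraries, horizontal lines the means and bars the SD (n = 3). Tcf7 sits between 490 and 515 CPM in WT with CMA, above all other groups, and Tox sits between 12.8 and 16.2 CPM in both WT groups against 37.5 to 42.6 CPM in both STING KO groups.

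Without functional STING, CMA went with a change past the threshold in 1 member, Id2, which was lower. None of the 10 was higher by edgeR's test (4 had an unadjusted p under 0.05 and a higher level, as did 5.94% of all genes, and DESeq2 called 0). Over all genes tested, 0.398% were higher and 0.920% lower, 1.32% in all, and 0.0290% were past the threshold with a change of at least 2-fold. Id2 was at 36.2, 37.1 and 36.0 CPM with DMSO and at 28.0, 26.9 and 30.0 CPM with CMA in STING KO T cells. All CMA libraries were lower, by a change of -0.37 ± 0.0556 (log2, SE, adjusted p = 0.00325, edgeR), and the call held in all 20 alternative fits.

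Of the other members, 4 had CMA libraries that all lay above the DMSO libraries in STING KO T cells, a pattern that 11.8% of all genes showed. For Id2 alone they all lay below, as for 11.3% of all genes. Their unadjusted p values were below 0.05 in edgeR's test but did not hold after adjustment. Tcf7 was at 313, 312 and 324 CPM with DMSO and at 341, 351 and 367 CPM with CMA, a difference of 0.16 (log2, adjusted p = 0.161, edgeR, and 0.0476 with the replicate number as a block). Id3 was at 36.8, 36.6 and 34.6 CPM with DMSO and at 42.4, 39.2 and 40.2 CPM with CMA, a difference of 0.17 (log2, adjusted p = 0.154, edgeR). For both genes the size of the difference was far below that in WT T cells, and for Id3 the sign was the opposite. Bach2 was at 240, 262 and 273 CPM with DMSO and at 281, 300 and 305 CPM with CMA (log2 0.19, adjusted p = 0.248, edgeR). Tox2 had 11, 13 and 7 reads with DMSO and 16, 25 and 27 with CMA (log2 0.96, adjusted p = 0.161, edgeR). A fit of the STING KO libraries alone moved Tcf7, Id3 and Bach2 past the threshold (adjusted p from 0.0146 to 0.0397, edgeR), and in that fit 2.04% of all genes were higher.

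The remaining members overlapped between the treatments in STING KO T cells. Lef1 was at 233, 226 and 235 CPM with DMSO and at 206, 211 and 229 CPM with CMA (log2 -0.10, 95% interval -0.20 to 0.00, unadjusted p = 0.0429, adjusted p = 0.367, edgeR). Satb1 was at 415, 411 and 428 CPM with DMSO and at 417, 415 and 411 CPM with CMA (log2 -0.01, 95% interval -0.13 to 0.10). These libraries were nearly level, and the same held for Tox, Zeb1 and Zeb2, whose fitted differences were 0.07, 0.00 and 0.06 (log2), with intervals no wider than -0.12 to 0.24.

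The difference of the CMA effect between the genotypes was tested directly. Of the 10 members, 4 had a higher CMA effect in WT (Tcf7, Lef1, Satb1 and Bach2) and 2 a lower one (Id3 and Tox2), where 27.2% and 31.6% of all genes tested were higher and lower, 58.8% in all. At a difference of at least 2-fold, which 16.0% of all genes reached, the members were Id3 and Tox2. The difference was 0.87 ± 0.0711 for Tcf7 and -1.26 ± 0.0844 for Id3 (log2, SE, adjusted p = 2.59e-08 and 2.64e-09, edgeR). For Lef1 and Satb1 it was 0.42 ± 0.0648 and 0.45 ± 0.0756 (log2, SE, adjusted p = 4.11e-05 and 8.63e-05, edgeR). For Tox2 it was -2.07 ± 0.481 (log2, SE, adjusted p = 0.00151, edgeR), since its change with CMA was -1.11 in WT and 0.96 in STING KO T cells. The value for Bach2, 0.26 ± 0.103 (log2, SE, adjusted p = 0.0409, edgeR), was lost in 10 of 19 alternatives, with adjusted p from 8.42e-04 to 0.100. Id2 had no detectable difference between genotypes in its CMA effect (0.07, log2, 95% interval -0.10 to 0.23, adjusted p = 0.483, edgeR). For Tox, Zeb1 and Zeb2 the differences were -0.07, 0.08 and 0.12 (log2), with 95% intervals of -0.30 to 0.16, -0.07 to 0.23 and -0.12 to 0.37.

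**Figure D2:**
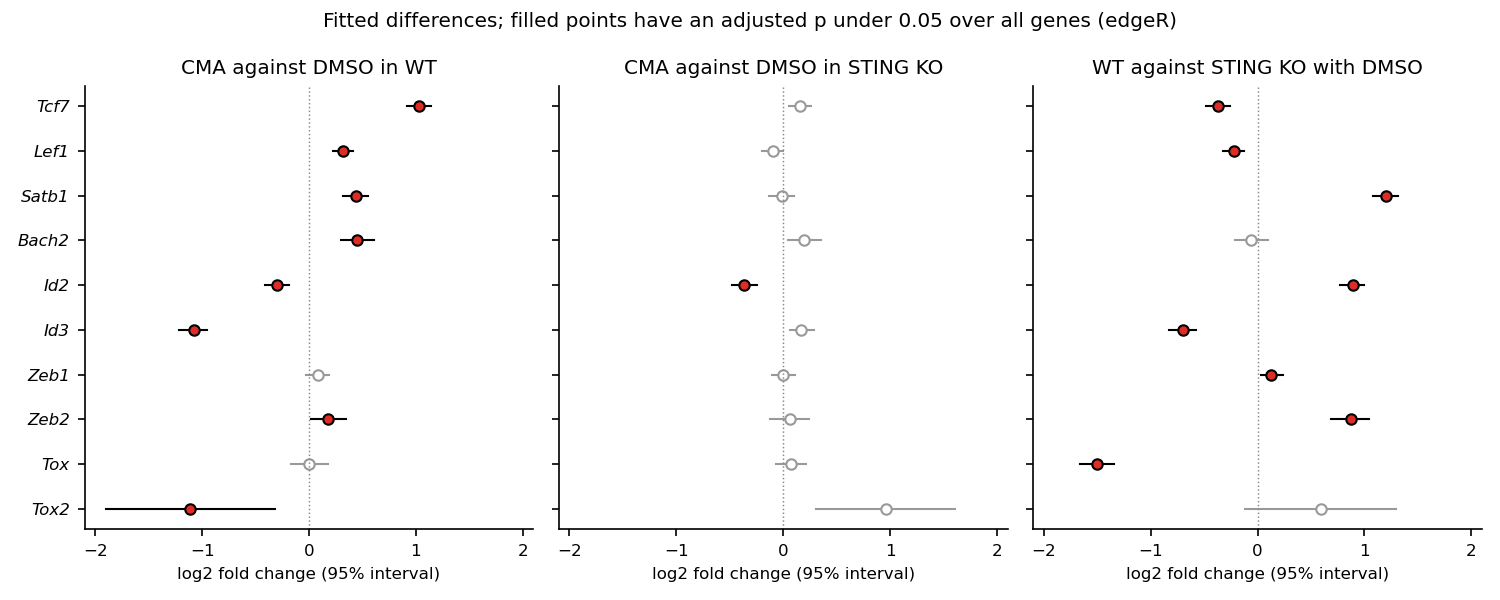
Fitted log2 fold changes of the 10 factors with 95% intervals for CMA against DMSO in WT (left), CMA against DMSO in STING KO (middle) and WT against STING KO with DMSO (right); filled points are past an adjusted p of 0.05 over all genes tested (edgeR). Tcf7 (1.03) and Id3 (-1.08) moved in opposite directions in WT with CMA, Id2 is the 1 filled point in STING KO, and Tox (-1.50) and Satb1 (1.20) lie farthest apart between the genotypes.

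With DMSO alone the genotypes already differed in most members. Satb1, Id2 and Zeb2 were higher in WT than in STING KO T cells, and Tox, Id3, Tcf7 and Lef1 were lower. With Zeb1 counted, 4 members were higher and 4 lower by edgeR's test, where 22.9% and 19.8% of all genes tested were higher and lower, 42.7% in all. The WT libraries all lay above the STING KO libraries in 3 members and all below in 4, where 25.3% and 22.6% of all genes did so. Tox and Satb1 differed by at least 2-fold, as did 7.28% of all genes. Tox was at 12.8 to 16.2 CPM in WT and at 40.1, 37.5 and 41.1 CPM in STING KO T cells. Its groups lay far apart, with a difference of -1.50 ± 0.0756 (log2, SE, adjusted p = 1.74e-10, edgeR), larger in size than for 96.1% of all genes tested. Satb1 was at 893 to 1062 CPM in WT and at 411 to 428 CPM in STING KO T cells, a difference of 1.20 ± 0.0542 (log2, SE, adjusted p = 4.65e-11, edgeR).

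The ID genes differed in opposite directions between the genotypes. Id2 was at 66.5 to 68.8 CPM in WT and at 36.0 to 37.1 CPM in STING KO T cells (log2 0.89 ± 0.0538, SE, adjusted p = 1.66e-09, edgeR). Id3 was at 20.7 to 23.2 CPM in WT and at 34.6 to 36.8 CPM in STING KO T cells (log2 -0.70 ± 0.0573, SE, adjusted p = 5.76e-08, edgeR). Per length, Id2 was therefore the more abundant ID mRNA in WT and Id3 in STING KO T cells, where the ratio of Id2 to Id3 in CPM per kb was 0.723, 0.746 and 0.764 with DMSO and 0.486, 0.503 and 0.548 with CMA. The summed CPM per kb of both genes in STING KO T cells was 34.1 to 35.6 with DMSO and 32.9 to 35.2 with CMA, so the treatments overlapped there.

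**Figure D3:**
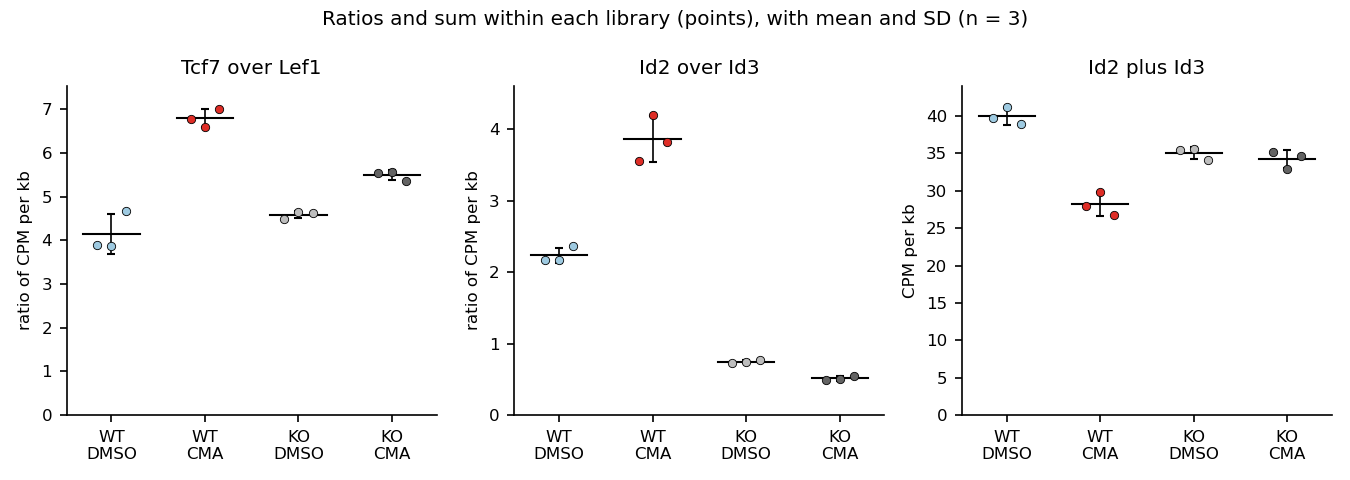
Tcf7 over Lef1 and Id2 over Id3 (ratios of CPM per kb of exon) and the summed CPM per kb of Id2 and Id3 in the 12 libraries; points are libraries, lines the means and bars the SD (n = 3), with axes from 0. The ratio of Id2 to Id3 lies between 2.17 and 4.20 in the WT libraries and between 0.486 and 0.764 in the STING KO libraries.

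Tcf7 with DMSO was lower in WT than in STING KO T cells, at 233 to 265 CPM against 312 to 324 CPM (log2 -0.37 ± 0.0504, SE, adjusted p = 1.89e-05, edgeR). Lef1 was lower too, at 190 to 204 CPM against 226 to 235 CPM (log2 -0.22 ± 0.0459, SE, adjusted p = 9.19e-04, edgeR). With CMA the order was turned around for these 2 genes, a contrast that was not tested, since the WT libraries were at 490 to 515 CPM for Tcf7 and 242 to 251 CPM for Lef1, above the STING KO libraries at 341 to 367 CPM and 206 to 229 CPM. Zeb2 was at 21.0 to 26.2 CPM in WT and 12.7 to 13.5 CPM in STING KO T cells with DMSO (log2 0.87 ± 0.0819, SE, adjusted p = 3.31e-07, edgeR). Zeb1 was at 65.2 to 76.3 CPM against 63.5 to 66.4 CPM, with overlap. The Zeb1 difference of 0.13 (log2, adjusted p = 0.0429, edgeR) was lost in 18 of 20 alternatives, with adjusted p from 0.00172 to 0.231. Bach2 and Tox2 were not past the threshold, with differences of -0.06 ± 0.0730 and 0.59 ± 0.336 (log2, SE). Leaving out WT DMSO replicate 3 moved Bach2 past it (adjusted p = 0.0456, edgeR).

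Markers of other cell types moved with the genotype. With DMSO, 7 of 7 B cell markers, 9 of 9 tested myeloid and dendritic markers and 6 of 7 CD8 and natural killer markers were higher in WT than in STING KO T cells, where 22.9% of all genes were higher. The 9 include Csf1r, at 0.384 CPM in WT and 0.0698 CPM in STING KO with DMSO. It passed the filter on low counts only through the WT libraries, so its call is no test. The summed B cell markers were at 666 to 734 CPM in WT and 299 to 309 CPM in STING KO with DMSO, the myeloid and dendritic markers at 66.1 to 74.9 CPM and 44.9 to 47.4 CPM, and the CD8 and natural killer markers at 128 to 144 CPM and 60.6 to 63.4 CPM. The naive T cells had been sorted before culture, a step that should remove such cells. Zeb2 and Id2 are also known from myeloid and natural killer cells, and Bach2 and Lef1 from B cells. With CMA in WT the summed CD8 and natural killer markers were at 66.5 to 70.1 CPM, with 5 of 7 lower, and the B cell markers at 744 to 829 CPM, with 4 of 7 higher and 1 lower. The summed myeloid and dendritic markers were at 82.3 to 87.5 CPM there, but 4 of 9 tested were lower (Lyz2, Itgam, Itgax and Fcer1g) and 2 were higher (Cst3 and Spi1), and Cst3 alone was at 38.6 CPM with DMSO and 55.7 CPM with CMA. Of all genes, 33.0% were higher and 37.4% lower with CMA in WT. In STING KO T cells with CMA these sums were 63.7 to 66.9 CPM, 318 to 328 CPM and 42.1 to 47.6 CPM. Of the defining markers, Siglech was at 0 in all groups but STING KO with CMA. The part of these markers in the members' differences was not tested.

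Levels of different members can be compared only per length. In CPM per kb of exon, taken over all annotated exons of a gene, Tcf7 was the most abundant member in each group, with means of 93.2 ± 6.85 (SD, n = 3) in WT with DMSO and 190 ± 5.06 with CMA, and 121 ± 2.52 and 135 ± 4.88 in STING KO T cells. Tox2 was the least abundant in each group, at means of 0.0590 to 0.166 CPM per kb. Satb1 was second in WT T cells, at 50.3 CPM per kb with DMSO and 68.1 with CMA. In STING KO T cells it was below Lef1 and Bach2, at 22.0 and 21.8, and with CMA also below Id3 (22.7). In WT with DMSO, Id2 (27.6 CPM per kb), Bach2 (24.9) and Lef1 (22.5) followed, and neighbours among these overlapped. Id3 (12.4), Zeb1 (6.94), Tox (1.84) and Zeb2 (1.20) came next without overlap.

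The order changed with CMA in WT T cells, where Bach2 (34.2 CPM per kb) and Lef1 (28.0) stood above Id2 (22.4), and Zeb1 (7.35) above Id3 (5.82), with no overlap between neighbours. In STING KO T cells with DMSO, Lef1 (26.3 CPM per kb) and Bach2 (26.0) overlapped, and Id3 (20.1) stood above Id2 (14.9). Tox, at 5.20 CPM per kb, was close below Zeb1 at 6.33 there. The exons of all isoforms sum to 19.0 kb for Satb1 and 19.9 kb for Zeb2, against 2.62 kb for Tcf7, so levels per length are understated for a gene whose main transcript is shorter than that sum.

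**Figure D4:**
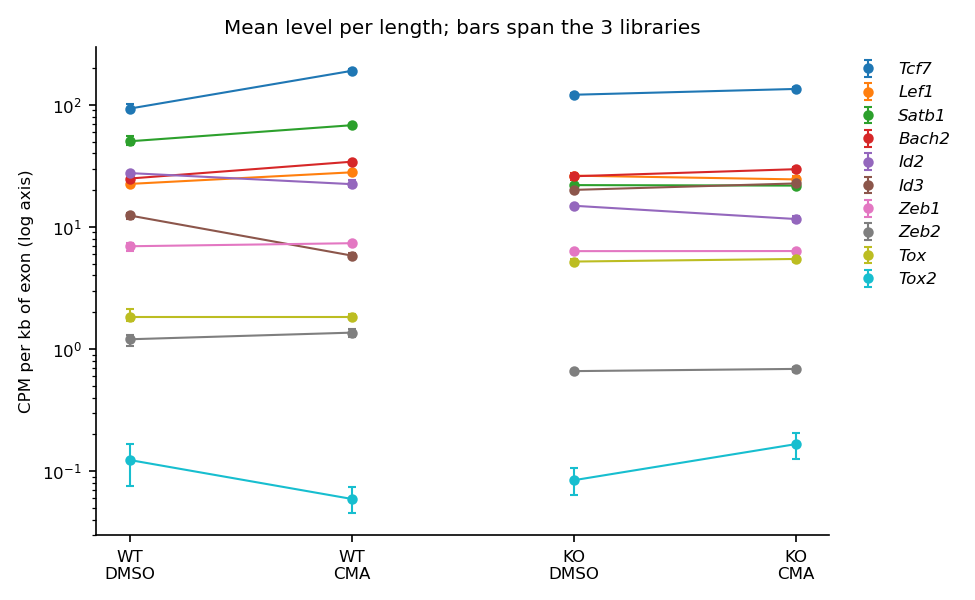
Mean level of each factor in CPM per kb of exon (log axis) in the 4 groups, with bars from the lowest to the highest of the 3 libraries and lines joining DMSO and CMA within a genotype. Tcf7 leads in every group (93.2 to 190 CPM per kb), and Satb1 drops from 50.3 CPM per kb in WT to 22.0 in STING KO with DMSO.

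The genes around these factors were read from lists of related genes. Of 20 memory and stem-like T cell genes, 15 were higher, 3 lower and 2 not past the threshold with CMA in WT (median log2 change 0.55, against -0.04 over all genes tested, of which 33.0% were higher and 37.4% lower). Ccr7, the receptor that guides T cells into lymph nodes, was at 563 ± 37.8 CPM (SD, n = 3) with DMSO and 2263 ± 42.1 CPM with CMA (log2 2.01, adjusted p = 3.57e-15, edgeR). Klf3, a Krüppel-like transcription factor, was at 7.04 ± 0.644 CPM and 25.9 ± 0.718 CPM. Ets1 and Runx1, transcription factors of T cell development, were lower, with changes of -0.39 and -0.45 (log2, adjusted p = 1.33e-04 and 4.33e-06, edgeR).

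Of 21 effector and exhaustion genes tested, 6 were higher, 11 lower and 4 not past the threshold (median log2 change -0.25), where 33.0% and 37.4% of all genes were higher and lower. Both directions held well-known members of the list. Lag3, an inhibitory receptor, was at 196 ± 14.8 CPM (SD, n = 3) with DMSO and 889 ± 17.6 CPM with CMA in WT (log2 2.18, adjusted p = 6.66e-15, edgeR). Tbx21, which encodes the T helper type 1 regulator T-bet, was at 90.3 ± 4.24 CPM and 166 ± 3.18 CPM (log2 0.87, adjusted p = 2.15e-11, edgeR). Maf, a transcription factor of Il10-producing and follicular T cells, and Entpd1, which encodes the ectonucleotidase CD39, were lower, with changes of -1.29 and -1.46 (log2, adjusted p = 4.69e-08 and 3.44e-09, edgeR).

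Among 16 tested TCF/LEF partners and β-catenin pathway genes, 7 were higher, 3 lower and 6 not past the threshold with CMA in WT (median log2 change 0.11). For this list and those that follow, 33.0% of all genes tested were higher and 37.4% lower, 70.4% in all. Tle2, a Groucho co-repressor, rose from 2.89 ± 0.872 CPM (SD, n = 3) to 13.4 ± 1.68 CPM, and Bcl9l, a β-catenin co-activator, from 22.4 ± 0.436 CPM to 49.4 ± 1.21 CPM (adjusted p = 4.26e-09 and 1.18e-11, edgeR). Tle1, another Groucho gene, and Axin2, a target and inhibitor of the pathway, fell by 0.35 and 0.39 on the log2 scale (adjusted p = 7.74e-04 and 0.00173, edgeR). Of the 4 tested E protein and other ID genes, 2 were higher, 1 lower and 1 not past the threshold. The E protein gene Tcf4 was at 25.2 ± 1.84 CPM with DMSO and 41.7 ± 1.87 CPM with CMA, and Tcf12 at 87.8 ± 11.9 CPM and 111 ± 6.06 CPM (adjusted p = 8.67e-07 and 6.79e-04, edgeR). The lower gene was Id1, a further ID gene, with 17, 23 and 24 reads with DMSO and 10, 16 and 15 reads with CMA (log2 -0.66, adjusted p = 0.0493, edgeR). Its fitted change was of like size in STING KO T cells, at -0.69 (log2, adjusted p = 0.232, edgeR). The difference of its CMA effect between the genotypes was 0.03 (log2, adjusted p = 0.965, edgeR). Of 11 co-repressor genes that work with ZEB, SATB1 or BACH2 proteins, 3 were higher and 4 lower. These included the histone deacetylase genes Hdac1 (log2 0.30), Hdac3 (-0.29) and Hdac2 (-0.65), and Sin3a, a scaffold of deacetylase complexes (0.19), each with an adjusted p of at most 0.00255 (edgeR). Of the close family members, Bach1 and Tox4 were lower (log2 -0.87 and -0.16, adjusted p = 6.80e-07 and 0.00386, edgeR). The 3 small Maf genes, whose proteins pair with BACH2, were not past the threshold.

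Tox3 and Id1 lie outside the rule for naming genes, because of their low counts, and were named after their values were seen. Tox3 (ENSMUSG00000043668), a paralogue of Tox, had 1, 1 and 6 reads with DMSO and 91, 88 and 85 reads with CMA in WT T cells. In STING KO T cells it had 3, 4 and 2 reads with DMSO and 4, 6 and 1 with CMA. It was therefore near the detection limit in all libraries but those of WT T cells with CMA. Summed over the WT libraries, 264 reads with CMA against 8 with DMSO gave a ratio of 32.4 in CPM, with an exact 95% interval of 16.2 to 75.9 that covers counting error only. Of the 8 DMSO reads, 6 were in replicate 3, so the ratio depends on that library. Tox3 passed the filter on low counts only through the group where it was high, so these values are a description with no test.

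In STING KO T cells with CMA, 2 of the 20 memory genes were higher (Slamf6 and Bcl6) and 3 lower (Il7r and Bcl2 among them), with log2 changes between -0.42 and 0.42, where 0.398% and 0.920% of all genes were higher and lower. Of the 21 effector genes, Tbx21 (log2 0.30, adjusted p = 0.00208, edgeR) and Nr4a1 were higher and Rbpj lower. The genes of both lists given here for STING KO T cells were named after their values were seen. Il7r, which encodes the interleukin-7 receptor, had the opposite sign with CMA in WT T cells, at 1.16 (log2, adjusted p = 9.43e-12, edgeR), against -0.42 in STING KO T cells. The difference of its CMA effect between the genotypes was 1.58 (log2, adjusted p = 1.16e-10, edgeR). No gene of the TCF/LEF, E protein, family, small Maf or co-repressor lists was past the threshold there in edgeR's test. With DMSO, 7 memory genes were higher and 7 lower in WT than in STING KO T cells, and 13 effector genes were higher and 4 lower (median log2 differences -0.03 and 0.47), where 22.9% and 19.8% of all genes were higher and lower. Markers of B, myeloid, CD8 and natural killer cells were also mostly higher in WT with DMSO, as given above. Their part in the differences of these lists was not tested.

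**Figure D5:**
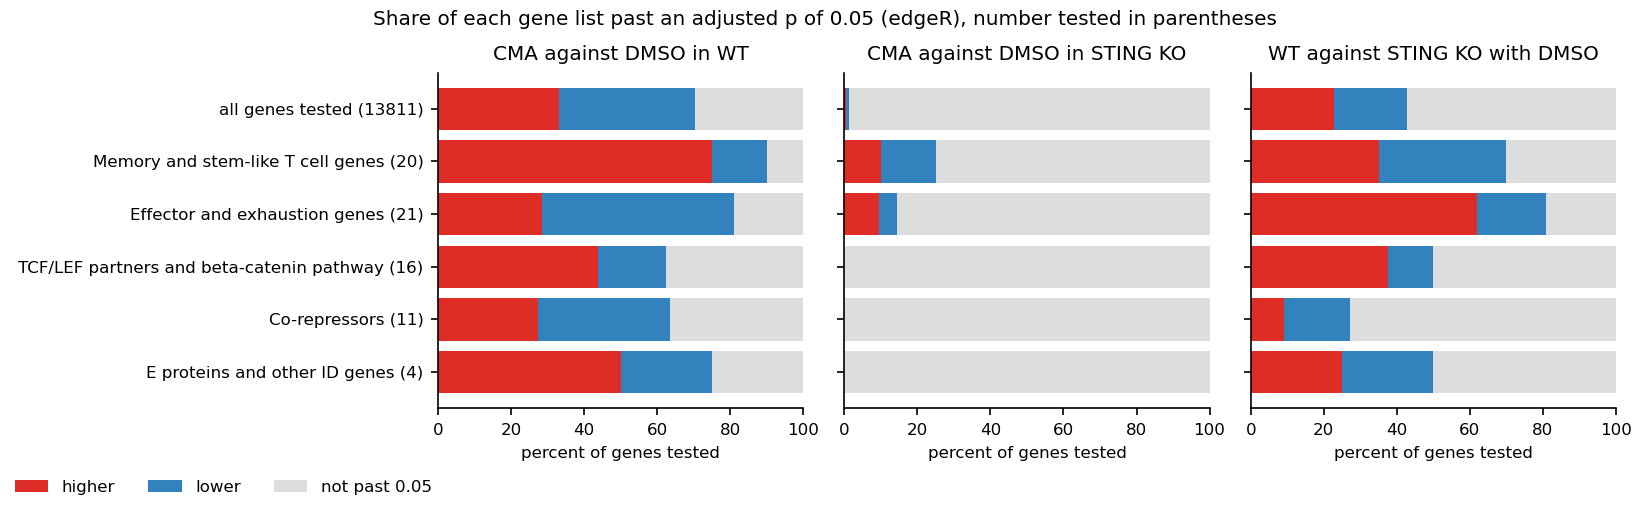
Percent of genes tested that were higher (red), lower (blue) or not past an adjusted p of 0.05 (grey; edgeR) in 5 lists and over all genes, for CMA against DMSO in WT, CMA against DMSO in STING KO and WT against STING KO with DMSO, with the number tested in parentheses. With CMA in WT, 15 of 20 memory genes are higher and 11 of 21 effector and exhaustion genes are lower.

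The genes with a pattern over the 4 groups most like that of Tcf7 were Trps1, Cd69 and Mbp, out of 11198 genes ranked by the root mean square difference of their centred group means of log2 CPM (0.0287, 0.0347 and 0.0363). Trps1, a zinc finger transcription factor, was at mean CPM values of 19.1, 39.8, 24.1 and 26.7 in WT with DMSO, WT with CMA, STING KO with DMSO and STING KO with CMA, respectively. Cd69, the early activation antigen, was at 105, 214, 144 and 154 CPM in the same order. Tox2 was the member with the lowest log2 change with CMA in WT. Its nearest genes were Ccl3, Sult2b1 and Bspry at 0.213, 0.229 and 0.234, so none was as close as for Tcf7. Ccl3, a chemokine gene, was at 9.70, 5.40, 6.10 and 9.77 CPM in that order.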

How the data were processed

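RNA from 12 libraries was analysed, 3 per group. Per the labels, libraries were made with a stranded mRNA kit, and the submitters' processing notes list cutadapt 1.3, STAR 2.4.0f1, HTSeq 0.6.1, RSEM 1.2.16 and GRCm38. The deposited counts are unnormalised numbers of reads on 38924 Ensembl gene IDs, with the strand setting of the counting not given in the sources used here. A second deposited table holds log2 values of 11921 genes, scaled per library by the authors. It was used only for an alternative and lacks Tox2. All per-sample columns were matched to libraries. The counter's tallies of unassigned reads entered neither library sizes nor tests. Of all entries, 27.8% to 30.3% were alignments that were not unique, 4.86% to 7.16% were placed on no feature and 0.594% to 0.635% were ambiguous.

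Counts were fitted with edgeR 4.0.16 (R 4.3.3; glmQLFit and glmQLFTest) with TMM scaling, filterByExpr (13811 genes kept) and 4 group means in 1 model, and p-values were adjusted by Benjamini-Hochberg over all genes kept, with a threshold of 0.05. The fits were also run on simulated counts with few changed genes, the same spread for all genes and no difference between the genotypes. These settings are unlike the data, so that run does not cover their scaling or noise. The alternatives were library size scaling, DESeq2 1.42.0, limma-voom and limma (3.58.1) on the log2 table, a fit of the 2 groups compared alone, all genes unfiltered, a filter of 10 counts in every library, a replicate block, an adjusted p under 0.01, a 2-fold minimum, and leaving out each library. Levels are CPM, or CPM per kb of the union of exons in GENCODE vM21. Exons that overlap those of another gene made up at most 13.7% of a member's exons (Lef1). Replicates differed by more than sampling noise (chi-square per degree of freedom 2.14 to 21.2). The WT DMSO pairs, at 7.28 to 21.2, were above all pairs of the other groups, which reached at most 5.05. Precision is limited by 3 libraries per group.

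The members and lists were chosen with earlier results of these data known. All members are named. By the rule, at most 4 genes of each list are named, namely the 2 highest and the 2 lowest changes with CMA in WT among those past the threshold with a mean count of at least 50 and no overlap of groups. For the members with the highest and lowest log2 change with CMA in WT (Tcf7 and Tox2), the 3 genes most like them are named. Further list genes, given for STING KO T cells or for low counts, and the myeloid markers given singly, were named after their values were seen. The name and values of 1 memory gene are not reported here, but the list counts include it.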

Additional observations from a re-analysis of the deposited data

Results flagged for a closer look

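The CMA effect differed between WT and STING KO T cells in 6 of the 10 members, by the test of the difference itself in edgeR's model. The log2 change in WT minus that in STING KO was 0.87 for Tcf7, 0.42 for Lef1, 0.45 for Satb1 and 0.26 for Bach2. It was -1.26 for Id3 and -2.07 for Tox2, whose changes were negative in WT and had positive fitted values in STING KO that were not past the threshold. Such differences were frequent, since 58.8% of all genes tested had one. The value for Tox2 rests on 5 to 27 reads per library, and that for Bach2 was lost in 10 of 19 alternatives.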

How the results depend on the processing

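No value of a member changed sign past the threshold under any alternative. Of all member values under the alternatives, 792 kept their call, 58 lost it and 11 gained it. These include the 2-fold minimum and the adjusted p under 0.01, whose stricter rules alone account for some of the losses. The numbers of alternatives given above for single members leave both settings out. With a 2-fold minimum, 1 member was higher with CMA in WT (5 without the minimum), 0 were lower in STING KO (1), 0 had a larger CMA effect in WT (4), and 1 was higher and 1 lower in WT than in STING KO with DMSO (4 each). For CMA in STING KO, where 0 members were higher, the count was 1 with no filter (Bach2), 1 with the replicate block (Tcf7) and 3 with only the 2 groups compared (Tcf7, Id3 and Bach2). The share of all genes called higher rose too, from 0.398% to 0.796%, 0.941% and 2.04%. Leaving out each library in turn gave 0 to 1, with 1 without WT DMSO replicate 2 (Bach2) and 1 without WT DMSO replicate 3 (Tcf7), where 1.28% and 1.21% of all genes were higher. The number of members with a lower CMA effect in WT was 1 with limma on the log2 table and 1 with at least 10 counts in every library, where Tox2 was not tested. The other causes were not tested.

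No pairing of libraries by replicate number was assumed. The sample names of same-numbered DMSO and CMA libraries share their first digit except for STING KO replicate 2, and the labels do not say what it marks. Deviations of same-numbered libraries correlated at 0.00311, 0.0850 and 0.111 in WT and at 0.0416, 0.0394 and 0.0513 in STING KO, and every DMSO library correlated best with its own number but WT replicate 1 (0.0442 with replicate 2). Over all genes, the replicate block raised the calls for CMA in STING KO from 55 to 130 higher and from 127 to 233 lower. Depth limits Tox2, which had 5 to 27 reads per library.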
